A study of Mus musculus with 6 samples.

Results

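The C/EBP family of transcription factors was followed in cells sorted from the stromal vascular fraction (SVF) of subcutaneous adipose tissue of Klf3-/- and WT mice. Its members were taken by gene symbol, as every probe set of the array that is annotated to exactly Cebpa, Cebpb, Cebpd, Cebpe, Cebpg, Cebpz or Ddit3. Of these 7 genes, 5 were measured, by 9 of 45037 probe sets. Cebpe and Cebpz were not analysed here. The family was selected on measured values, the genotype differences of Cebpd and Cebpa on these same arrays, so the difference of each member between genotypes is given as a description and no test of it is reported.

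C/EBP proteins bind DNA as dimers through a basic region and a leucine zipper, and they pair with one another and with other zipper proteins. In blood formation C/EBPα is needed to make granulocyte and macrophage progenitors, C/EBPε completes the granule programme of neutrophils and eosinophils, and C/EBPβ carries granulocyte production under inflammatory stress and much of the activation programme of macrophages. In adipose tissue C/EBPβ and C/EBPδ are switched on early when preadipocytes differentiate, and C/EBPα follows together with PPARγ. KLF3 is a zinc finger protein that binds CACCC elements and recruits the CtBP co-repressor.

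The knockout mice were Klf3-/-, with the gene disrupted in all tissues, and the controls were WT littermates (3 male mice of each, FVB/NJ strain, from crosses of heterozygous parents). All were 12 weeks old, untreated, fed chow and housed at 22 °C. Eosinophils were gated in the inguinal SVF as live, high side scatter cells positive for CD45, CD11b, F4/80 and Siglec-F, and the RNA of each mouse was hybridised to its own Affymetrix HT MG-430PM array. The deposited intensities are linear and were not on a common scale, since array medians were 46.7, 58.7 and 35.4 in Klf3-/- mice 1 to 3 and 36.8, 56.5 and 30.3 in WT mice 1 to 3. Unless stated otherwise, values are therefore log2 intensities after quantile normalisation between the arrays, and each fold change is the mean difference on that scale, Klf3-/- minus WT, with its standard error from limma.

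As the table has no detection calls, a background level was set from 44 olfactory receptor probe sets at their 95th percentile (5.10 on the log2 scale, 34.2 as an intensity), and 55.3% of probe sets lay above it. Of 9 measured eosinophil markers, 7 lay below this level, among them Siglecf (4.15 ± 0.11 in Klf3-/- and 4.58 ± 0.20 in WT, 3 mice each, ± SD), the gene of the protein that the gate stained for, and Epx and Prg2, which encode eosinophil granule proteins. Of the list, Prg3 and Ltc4s exceeded it narrowly in their mean over the 6 arrays (5.20 and 5.13). Prg3 averaged 4.84 in Klf3-/- and Ltc4s 4.87 in WT, both under the level. The macrophage complement gene C1qa read 12.19 ± 0.46 in Klf3-/- and 12.05 ± 0.43 in WT. The samples are therefore called sorted SVF samples below. Klf3 itself was covered by 6 probe sets, 5 of which read higher on all Klf3-/- arrays and 1 lower. Their position relative to the disrupted stretch is unknown here, and they do not check the genotype labels.

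The promoter sequences were matched for 4 of the 7 genes, Cebpa, Cebpb, Cebpg and Ddit3, in RefSeq windows that run from 250 bases before to 50 bases after the annotated start (assembly GRCm38.p6, which is not the FVB/NJ strain of the mice). The 3 windows that hold the CACCC element of KLF proteins on either strand are shown because KLF3 was the factor removed. They lie at chr7:35119043-35119342 (plus strand, Cebpa), chr2:167688665-167688964 (plus strand, Cebpb) and chr10:127290543-127290842 (plus strand, Ddit3). Capitals mark CACCC or its reverse complement GGGTG.
Cebpa: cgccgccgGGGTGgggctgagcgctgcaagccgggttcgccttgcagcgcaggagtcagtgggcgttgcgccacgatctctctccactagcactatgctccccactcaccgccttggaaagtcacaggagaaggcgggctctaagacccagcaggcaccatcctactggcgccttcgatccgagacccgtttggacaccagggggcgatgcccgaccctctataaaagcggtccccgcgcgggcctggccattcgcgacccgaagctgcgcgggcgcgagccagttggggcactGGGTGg
Cebpb: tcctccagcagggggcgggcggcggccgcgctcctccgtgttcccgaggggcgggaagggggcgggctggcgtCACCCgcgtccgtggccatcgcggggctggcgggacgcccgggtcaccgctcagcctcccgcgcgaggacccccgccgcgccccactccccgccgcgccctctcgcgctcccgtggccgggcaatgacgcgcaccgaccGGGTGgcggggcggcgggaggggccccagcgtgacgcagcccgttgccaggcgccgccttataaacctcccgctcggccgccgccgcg
Ddit3: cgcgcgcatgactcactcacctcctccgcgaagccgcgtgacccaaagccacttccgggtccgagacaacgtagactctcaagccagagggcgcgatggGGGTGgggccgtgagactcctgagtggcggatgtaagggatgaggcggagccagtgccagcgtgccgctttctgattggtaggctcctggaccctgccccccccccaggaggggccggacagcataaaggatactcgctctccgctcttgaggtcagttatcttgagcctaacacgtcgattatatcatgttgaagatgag

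The Cebpa window held 2 matches, at -242 and 45 bases from the start, both on the strand opposite to the gene. Cebpb also held 2, at -177 on its own strand and at -38 on the opposite strand, and Ddit3 held 1, at -151 on the opposite strand. The Cebpg window (chr7:35056517-35056816, minus strand) held none. CACCC was present in 57.5% of all 32851 windows of this length, and 2 or more matches in 25.7%. Of the other motifs searched on both strands, only the GC box GGGCGG was found, with 5 matches in Cebpb, of which those at -238 and -234 overlap each other, and 1 in Cebpg at 45 (35.7% of all windows hold it). The C/EBP element TTNNGNAA (40.7% of all windows), the STAT element TTCNNNGAA (8.30%), the composite ATF4-C/EBP element TGATGNAA (3.97%) and the cyclic AMP element TGACGTCA (1.79%) were not found in these 4 windows. A match is a run of letters and not a measured binding site. Cebpa and Cebpg are neighbours on chromosome 7, with 1 protein-coding and 1 other gene model annotated between them.

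Cebpd, the early acting factor of adipogenesis and an acute phase gene, was the member that differed most between the genotypes. Its deposited intensity was 601, 1151 and 469 in Klf3-/- mice 1 to 3, against 223, 414 and 178 in WT mice 1 to 3. Every Klf3-/- array lay above every WT array, although each genotype's mouse 2 was the brightest and mouse 3 the dimmest. After normalisation Cebpd averaged 9.33 ± 0.19 in Klf3-/- and 8.10 ± 0.09 in WT (3 mice each, ± SD). The log2 fold change was 1.23 (SE 0.18), or 2.34-fold. Between mice of the same number it was 1.12, 1.44 and 1.13 after normalisation and 1.43, 1.48 and 1.40 as deposited, all in the same direction. Leaving out each array in turn gave 1.13 to 1.33.

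Cebpa, the factor of myeloid progenitors and of late adipogenesis, read lower in Klf3-/- on average. It had 374, 406 and 203 intensity units in Klf3-/- mice 1 to 3, against 465, 530 and 391 in WT mice 1 to 3. The genotypes overlapped, since mouse 2 of the Klf3-/- group exceeded mouse 3 of the WT group as deposited. After normalisation the mean was 8.19 ± 0.21 in Klf3-/- and 8.95 ± 0.47 in WT (3 mice each, ± SD), and the overlap was that of Klf3-/- mouse 1 (8.424) and WT mouse 2 (8.417). The log2 fold change was -0.76 (SE 0.28), or 1.70-fold lower, and it was -0.55 on the values as deposited. On the normalised scale it was -1.02 without WT mouse 2 and -0.58 without WT mouse 3, and pairs of the same number gave -0.68, -0.39 and -1.22.

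Ddit3 encodes CHOP, a C/EBP relative that is induced by endoplasmic reticulum stress and that keeps its partners off their usual sites. Its intensity was 237, 269 and 190 in Klf3-/- mice 1 to 3, against 334, 378 and 166 in WT mice 1 to 3. WT mouse 3 was thus the dimmest of all 6 as deposited, and the genotypes overlapped. After normalisation Ddit3 averaged 7.73 ± 0.28 in Klf3-/- and 8.22 ± 0.34 in WT (3 mice each, ± SD), with a log2 fold change of -0.49 (SE 0.25). It was -0.26 as deposited and -0.30 without WT mouse 1, and leaving out the other arrays in turn gave -0.63 to -0.35.

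Cebpb encodes 1 transcript from which long activating and short inhibitory proteins are translated, a distinction that an array of RNA does not make. Its brightest probe set, 1418901_PM_at, had 430, 756 and 460 units in Klf3-/- mice 1 to 3, against 379, 463 and 387 in WT mice 1 to 3. The mean was 8.94 ± 0.33 in Klf3-/- and 8.78 ± 0.53 in WT (3 mice each, ± SD), and the log2 fold change of 0.16 was smaller than its error (SE 0.32). It was 0.38 as deposited and -0.05 as the mean of the 3 probe sets. Leaving out single arrays gave -0.11 (without WT mouse 2) to 0.42 (without WT mouse 3), so the sign was not stable. The probe set 1427843_PM_at gave -0.17 and 1427844_PM_a_at gave -0.16, and the last of these lay below the olfactory receptor level on all 6 arrays. No direction can be given for Cebpb.

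Cebpg encodes a widely expressed partner without an activation domain of its own, and its 3 probe sets differed in sign. The brightest, 1451639_PM_at, had 337, 519 and 259 units in Klf3-/- mice 1 to 3, against 308, 644 and 244 in WT mice 1 to 3, which overlap. After normalisation it averaged 8.37 ± 0.10 in Klf3-/- and 8.61 ± 0.11 in WT (3 mice each, ± SD) without overlap, yet the log2 fold change of -0.24 (SE 0.17) shrank to -0.03 as deposited. The other probe sets gave 0.14 (1425262_PM_at, 0.36 as deposited) and -0.20 (1425261_PM_at, 0.03 as deposited), and the mean of all 3 gave -0.10.

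Of the 9 probe sets, 1 (Cebpd) was higher on every Klf3-/- array than on any WT array, 1 (Cebpg) was lower and 7 overlapped. Over all 45037 probe sets 4.49% were higher without overlap and 6.51% lower. On the values as deposited the 9 were split as 1 higher, 0 lower and 8 overlapping, beside 3.61% higher and 0.244% lower over all probe sets. After centring on array medians they were split as 1, 2 and 6, beside 3.72% higher and 7.93% lower, and the 2 lower ones were Cebpa and Ddit3. These counts come from the contrast with which the family was selected, and nothing is read from them. The median log2 fold change over 17097 genes was -0.04 (1st percentile -0.95, 99th percentile 1.48), and it was 0.13 on the values as deposited. In limma with Benjamini-Hochberg adjustment over all probe sets, 0 of 45037 (0.0%) passed an adjusted p of 0.05, while the unadjusted threshold was reached by 1398 higher and 1077 lower probe sets.

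**Figure D1:**
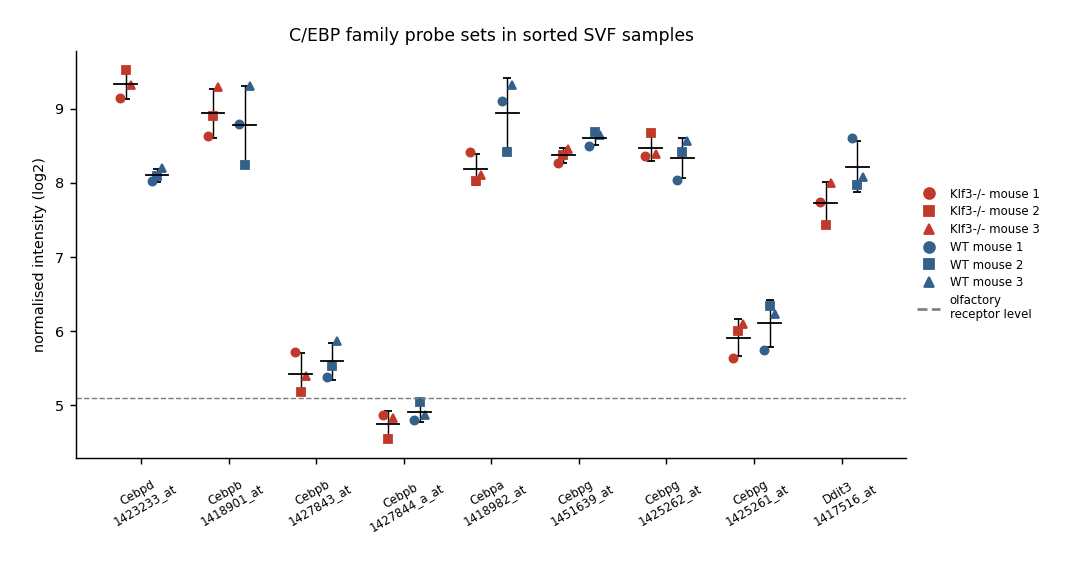
Normalised log2 intensity of the 9 C/EBP family probe sets in each of 3 Klf3-/- (red, left) and 3 WT (blue, right) mice, with the mean and SD as bars and the olfactory receptor level dashed. The Cebpd groups (9.33 ± 0.19 in Klf3-/- and 8.10 ± 0.09 in WT) are far apart, the Cebpa groups touch, and 1 Cebpb probe set lies below the dashed line.

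**Figure D2:**
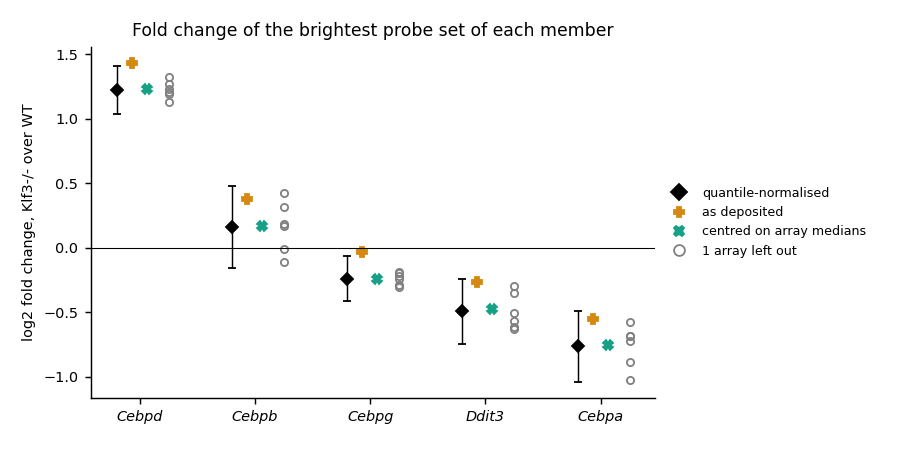
Log2 fold change (Klf3-/- over WT) of each member's brightest probe set under 3 scalings and with each array left out; the bar on the normalised value is its standard error. Cebpd stays between 1.13 and 1.44, Cebpa and Ddit3 stay below 0, and Cebpb crosses 0.

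Because all probe sets of an array share its scale, any factor by which an array is multiplied cancels in the log2 difference between 2 members of that array. Probe sets differ in how well they bind, so only the change of such a difference between genotypes can be read, and these pairs were examined after the values were seen. Cebpd minus Cebpa was 0.69, 1.51 and 1.21 in Klf3-/- mice 1 to 3, against -1.06, -0.36 and -1.14 in WT mice 1 to 3, a mean difference of 1.98. Cebpd also exceeded its WT relation to each of the other members without overlap, by 1.06 against Cebpb, 1.47 against Cebpg and 1.70 against Ddit3. All of these comparisons share the same Cebpd values, and the family was selected on the genotype differences of Cebpd and Cebpa. They are thus not separate support, and the share over other gene pairs was not computed. Cebpb minus Cebpa was 0.20, 0.90 and 1.18 in Klf3-/- mice and -0.30, -0.19 and -0.02 in WT mice. The remaining pairs overlapped between the genotypes.

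**Figure D3:**
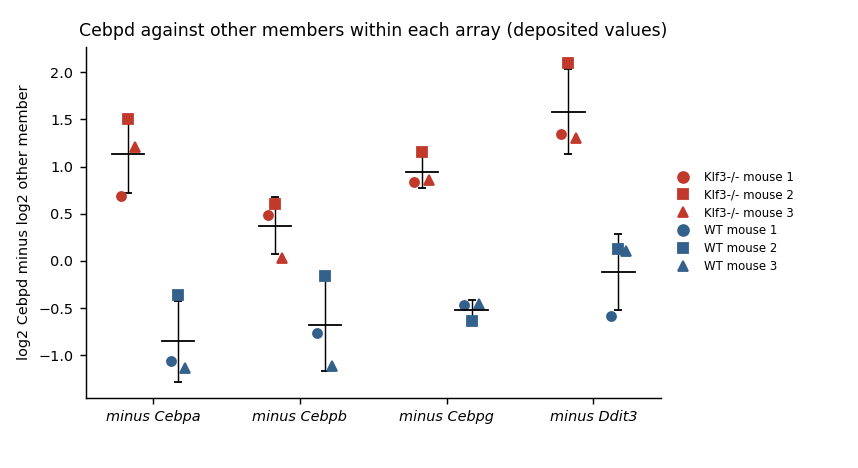
Log2 deposited intensity of Cebpd minus that of each other member in the same array, for 3 Klf3-/- (red, left) and 3 WT (blue, right) mice, with mean and SD. All Klf3-/- arrays lie above all WT arrays in each of the 4 comparisons, by 1.98 on average for Cebpa and 1.06 for Cebpb. The 4 comparisons share the same Cebpd values, and the family was selected on the differences of Cebpd and Cebpa.

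The array RNA came from sorted cell pools, in which fewer cells of a type and less RNA per cell cannot be told apart, so markers of other cell types are given beside the members. All 14 measured stromal fibroblast and preadipocyte markers had a positive log2 fold change (median 0.96, or 0.57 without Klf3-/- mouse 2), and their summed intensity was 23580, 36210 and 25950 in Klf3-/- mice 1 to 3, against 12920, 15840 and 22130 in WT mice 1 to 3, which do not overlap. At an unadjusted p of 0.05, 8 of them were higher, beside 3.61% of all 17097 genes. The smallest p was that of Igfbp6, an insulin-like growth factor binding protein gene (1.88, SE 0.18, limma adjusted p = 0.200), and the largest log2 fold change that of Fn1, which encodes fibronectin (2.38, SE 0.46, limma adjusted p = 0.663). The brightest markers of the list, the matrix genes Col3a1 and Dcn, had 0.30 and 0.71. The mean stromal level and Cebpd were both lowest in WT mouse 1 and both highest in Klf3-/- mouse 2, and both rose from mouse 1 to mouse 3 in WT. Klf3-/- mice 1 and 3 were in reverse order, with stromal means of 9.298 and 9.204 and Cebpd at 9.142 and 9.325. Of the 10 dendritic cell and MHC class II markers 9 had a negative log2 fold change (median -0.59, or -0.22 without WT mouse 2), with Itgax, the gene of CD11c, at -1.69 (SE 0.26, limma adjusted p = 0.600). The brightest of them, the class II chain gene H2-Aa and the invariant chain gene Cd74, had -0.20 and -0.38. Their mean level was 9.21, 9.08 and 9.05 in Klf3-/- mice 1 to 3, against 9.47, 10.34 and 9.42 in WT mice 1 to 3. It was highest in WT mouse 2, the WT mouse in which Cebpa was lowest after normalisation. What part these markers have in the values of Cebpd and Cebpa was not tested. Of 7 adipocyte markers, 4 had a mean over the 6 arrays below the olfactory receptor level. The other marker lists had medians of -0.63 (smooth muscle and pericyte), -0.53 (endothelial), -0.46 (B cell), -0.17 (adipocyte), -0.11 (eosinophil), 0.04 (T and innate lymphoid cell), 0.14 (macrophage), 0.59 (neutrophil) and 0.94 (mast cell and basophil). Leaving out 1 array moved several of these a long way, with -0.09 to 0.76 for neutrophil, -0.10 to 1.67 for mast cell and basophil, -1.07 to 0.44 for endothelial and -0.86 to -0.22 for smooth muscle and pericyte markers. The brightest markers of the other lists had log2 fold changes of -0.94 (Acta2) and -1.24 (Myh11) for smooth muscle, -0.01 (Pecam1) and -0.46 (Egfl7) for endothelium, -0.61 (Ms4a1) and -0.21 (Cd79a) for B cells, and -0.17 (Fabp4) and -0.11 (Lipe) for adipocytes. They were 0.29 (Cd3e) and -1.11 (Cd4) for T cells, 0.14 (C1qa) and 0.14 (C1qb) for macrophages, 0.79 (S100a9) and 3.11 (Ltf) for neutrophils, 1.14 (Cpa3) and 0.84 (Cma1) for mast cells and -0.73 (Prg3) and 0.53 (Ltc4s) for eosinophils. Prg3 and Ltc4s lay close to the olfactory receptor level. None of the 99 marker genes in 11 lists passed an adjusted p of 0.05 in limma, and the unadjusted threshold was reached by 11 higher and 7 lower genes. Over all 17097 genes the shares at that threshold were 3.61% higher and 2.47% lower.

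**Figure D4:**
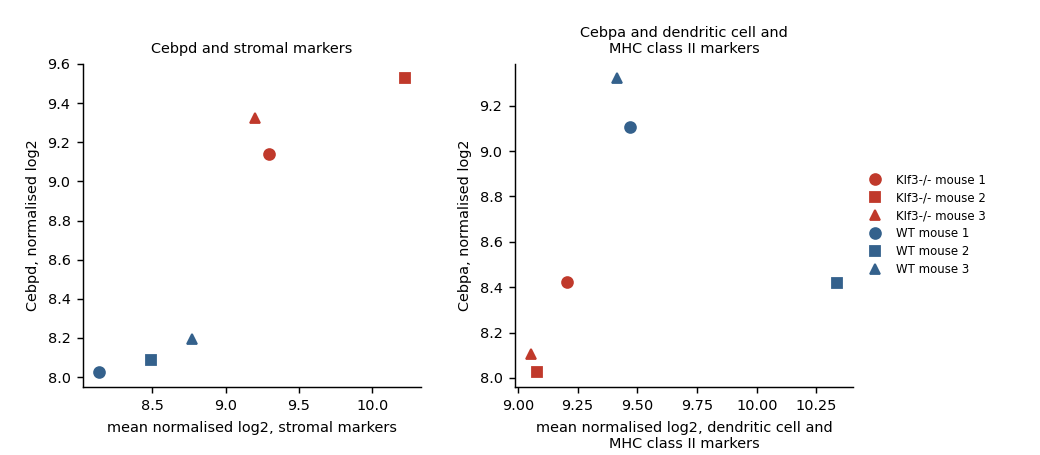
Normalised log2 level of Cebpd against the mean of 14 stromal markers, and of Cebpa against the mean of 10 dendritic cell and MHC class II markers, 1 point per mouse (Klf3-/- red, WT blue). The Klf3-/- mice are high on both axes of the first panel and low on the marker axis of the second, where WT mouse 2 combines the highest marker mean (10.34) with a low Cebpa level (8.42).

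Around the members, 130 genes in 8 lists were measured, among them the partners of C/EBP proteins, the signals that induce the family and its target genes. None passed an adjusted p of 0.05 in limma, where the smallest was 0.663, and an unadjusted p of 0.05 was reached by 9 genes that were higher and 4 that were lower. Over all 17097 genes, 3.61% were higher and 2.47% lower at that level. When the replicate number was a block, 1734 of 45037 probe sets were higher and 1478 lower, and the share over genes was not computed.

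Upstream, a list was drawn around the inducers of Cebpb and Cebpd, which include gp130-STAT3 cytokines, the glucocorticoid receptor and cyclic AMP signalling. It also holds Il1b and its receptor gene Il1r1, and response genes or inhibitors of these pathways such as Socs3, Fkbp5 and Dusp1. Its counts and median thus do not describe inducers alone. Of 20 measured genes, 12 had a positive fold change, 2 higher and 0 lower genes reached an unadjusted p of 0.05, and the median log2 fold change was 0.12, though 0.28 as deposited and -0.03 without WT mouse 2. Il6 and Il1r1, the 2 higher genes, are both inflammatory. Il6, a gp130 cytokine that is also a C/EBP target, had 245, 438 and 228 units in Klf3-/- mice 1 to 3, against 62.5, 138 and 82.9 in WT mice 1 to 3. The groups did not overlap, and the log2 fold change was 1.45 (SE 0.26, adjusted p = 0.663). Il1r1, the interleukin-1 receptor, had a log2 fold change of 1.31 (SE 0.37, adjusted p = 0.849), with 220.8, 531.0 and 117.3 units in Klf3-/- mice 1 to 3 and 113, 89.0 and 52.9 in WT mice 1 to 3. Nr3c1, the glucocorticoid receptor, had 0.36 (SE 0.17, adjusted p = 0.910).

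Of 13 zipper partners, 8 had a positive fold change and the median was 0.28 (0.17 after centring, 0.13 without Klf3-/- mouse 2 and 0.15 without Klf3-/- mouse 3). Atf5, a stress-induced zipper factor, was the 1 gene at an unadjusted p of 0.05, with 7.29 ± 0.21 in Klf3-/- and 6.57 ± 0.23 in WT (3 mice each, ± SD) and a log2 fold change of 0.71 (SE 0.21, adjusted p = 0.854). Jund, an AP-1 subunit, had 0.55 (SE 0.24), and Batf3, which is needed for a class of dendritic cells, had -0.85 (SE 0.50). Among 12 genes that act in the modification or degradation of C/EBP proteins the median was -0.11 and the mean 0.04. The median was 0.12 as deposited and -0.01 without Klf3-/- mouse 2 or WT mouse 3. The kinase gene Rps6ka3 was the 1 gene at an unadjusted p of 0.05 (0.45, SE 0.18, adjusted p = 0.901), and with the replicate number as a block 0 reached it. Trib1, whose protein directs C/EBPα to degradation, had 0.80 (SE 0.44), and the arginine methyltransferase gene Prmt1 had -0.32 (SE 0.22).

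The stress genes around Ddit3 were split, with 9 of 19 positive and a median of -0.01 (0.17 as deposited, 0.08 without Klf3-/- mouse 1). Sdf2l1, an endoplasmic reticulum chaperone complex gene, was 8.18 ± 0.01 in Klf3-/- and 8.82 ± 0.25 in WT (3 mice each, ± SD), a log2 fold change of -0.64 (SE 0.19, adjusted p = 0.862). Nupr1, a stress-induced nuclear protein gene, had 0.73 (SE 0.30, adjusted p = 0.901), and Sesn2, a target of the ATF4 branch, had -0.65 (SE 0.31). With the replicate number as a block, 1 gene of this list was higher and 2 were lower at an unadjusted p of 0.05. Of all 45037 probe sets, 1734 were higher and 1478 lower in that fit.

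Of 16 myeloid transcription factors that act with C/EBPs, 6 had a positive fold change and the median was -0.13, although it was 0.079 as deposited and 0.005 without WT mouse 1. The genes with the smallest p were Runx1, a regulator of blood stem cells, at 0.57 (SE 0.28, adjusted p = 0.910), Irf8, which directs dendritic cell and monocyte fate, at -0.71 (SE 0.35, adjusted p = 0.910), and Klf4 at 0.48 (SE 0.32, adjusted p = 0.928). Gata1, on which eosinophils depend, read 4.14 ± 0.30 in Klf3-/- and 3.80 ± 0.25 in WT, under the olfactory receptor level (3 mice each, ± SD). No gene of the list reached an unadjusted p of 0.05 in limma without the block, and 0 higher and 2 lower did with it. The block gave 1734 higher and 1478 lower of all 45037 probe sets.

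Among target genes, 10 of 19 granule and receptor genes of granulocytes had a positive fold change and the median was 0.02 (0.14 as deposited, -0.06 after centring, -0.13 without WT mouse 1). Both genes at an unadjusted p of 0.05 encode proteins of neutrophil secondary granules. Ltf, which encodes lactoferrin, had 515, 458 and 1382 units in Klf3-/- mice 1 to 3, against 41.1, 65.6 and 103 in WT mice 1 to 3, and its log2 fold change was 3.11 (SE 0.75, adjusted p = 0.736). The spread within a genotype was wide, at 9.30 ± 1.34 in Klf3-/- and 6.19 ± 1.02 in WT (3 mice each, ± SD). Lcn2, which encodes lipocalin 2, had 2.12 (SE 0.79, adjusted p = 0.868) and the genotypes overlapped after normalisation. Other neutrophil granule genes of the list did not share a direction, with Camp at -1.49 (SE 1.10), Ngp at 0.125 (SE 0.95) and Mmp9 at 1.085 (SE 0.585). Csf2rb, the shared receptor chain of IL-3, IL-5 and GM-CSF, had -0.36 (SE 0.17, adjusted p = 0.910). Epx, Prg2, Il5ra, Elane and Mmp8 had means over the 6 arrays below the olfactory receptor level. Of these, Elane read 6.80 in WT mouse 2 and Mmp8 read 6.22 in Klf3-/- mouse 1, both above it.

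Of 18 acute phase and inflammatory targets, 13 had a negative fold change, and the median was -0.22 while the mean was 0.02. The median was -0.07 as deposited, -0.10 without WT mouse 2, -0.12 without Klf3-/- mouse 3 and -0.47 without WT mouse 3. Beside Il6, the genes at an unadjusted p of 0.05 were Il1rn, the interleukin-1 receptor antagonist, at -0.95 (SE 0.38, adjusted p = 0.888), and Saa2, a serum amyloid gene, at -0.48 (SE 0.19, adjusted p = 0.881), whose mean of 5.05 over the 6 arrays was below the olfactory receptor level. The block gave 2 higher and 2 lower genes at that p, beside 1734 higher and 1478 lower of all 45037 probe sets. In the adipogenic cascade 9 of 17 genes had a positive fold change and the median was 0.00 (0.14 as deposited, -0.15 without Klf3-/- mouse 3, 0.32 without WT mouse 3). Gata3, which restrains preadipocyte differentiation and is also a T cell factor, had 1.80 (SE 0.58, adjusted p = 0.865), and Ebf2, a factor of beige and brown precursors, had 1.43 (SE 0.48, adjusted p = 0.868). Klf15, which acts late in differentiation, had -0.61 (SE 0.23, adjusted p = 0.868). Pparg, the partner of Cebpa in the late phase, averaged 7.11 ± 0.82 in Klf3-/- and 7.11 ± 0.71 in WT (3 mice each, ± SD). Adipoq had a mean over the 6 arrays of 4.75, below the olfactory receptor level, but it read 7.10 in WT mouse 3.

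**Figure D5:**
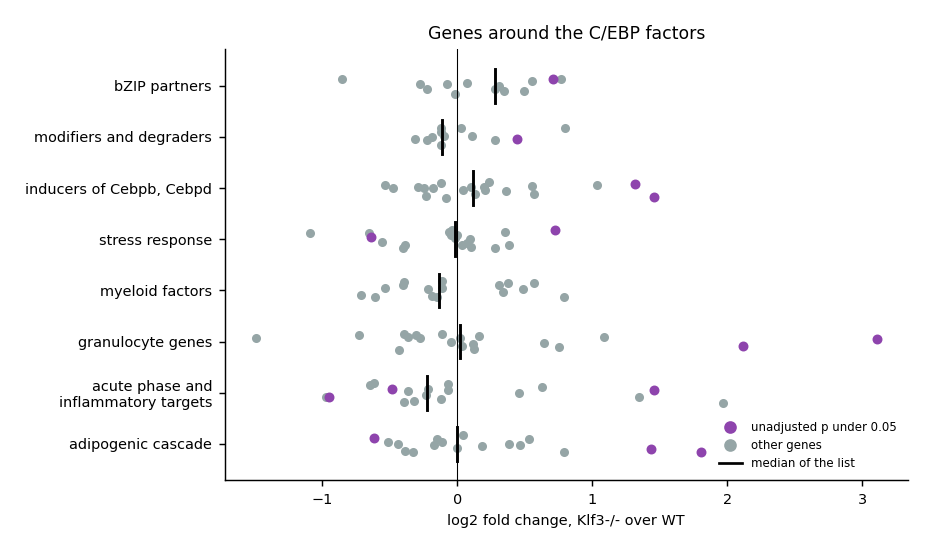
Log2 fold change (Klf3-/- over WT) of each measured gene in the 8 lists around the C/EBP factors, 1 point per gene, with the list's median as a bar and the genes at an unadjusted p of 0.05 in purple. The medians lie between -0.22 and 0.28, and the farthest points are Ltf (3.11) and Lcn2 (2.12) among the granulocyte genes; none of the points passed an adjusted p of 0.05.

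The members differed in how they varied over the 6 arrays. The Pearson correlation of Cebpd with Cebpa was -0.80 over the 6 arrays and -0.21 once each genotype's mean was subtracted. That of Cebpa with Ddit3 was 0.71 over the arrays and 0.38 after subtraction. For Cebpd with Ddit3 the values were -0.755 and -0.542, and for Cebpd with Cebpg -0.749 and 0.531. Since the family was selected on the genotype differences of Cebpd and Cebpa, a negative value over the 6 arrays was largely given for that pair. The genes most like each member were taken as the 5 with the highest Pearson correlation among 11114 genes above the olfactory receptor level. For Cebpd they were Ecm1, Anxa8, Agap1, Pcolce and Ugp2 (0.985 to 0.999), for Cebpa Actl7b, Fnip2, Cep250, Mustn1 and Ptprm (0.972 to 0.995), and for Cebpb Ppp3ca, Usp24, Hmox1, Meox2 and Xkr8 (0.983 to 0.992). For Cebpg they were Pfdn1, Zmym3, Ppm1k, Ulk3 and Wfdc15a (0.968 to 0.990), and for Ddit3 Rdh5, Disp3, Tlr2, Rdh11 and Vps11 (0.980 to 0.991). The points are 6 arrays of 2 genotypes, and each of these values is among the highest of 11114, so they describe these arrays only. When genotype means were subtracted, the 5 genes nearest to Cebpd and to Cebpg shared 0 with these, those of Cebpb shared 1, and those of Cebpa and of Ddit3 shared 2 each.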

How the data were processed

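Gene expression was measured on 6 arrays, 1 per mouse. Target was made by the authors with an Affymetrix 3′ IVT Pico Kit, and Partek Genomics Suite was their array software. A legend of the study names RMA without its steps. The deposited values are linear intensities without detection calls. Their log2 values were quantile-normalised, and the deposited log2 values and values centred on array medians were kept as alternatives. Linear models with genotype as the only term were fitted in limma 3.58.1 (R 4.3.3) and tested on simulated data, with p-values adjusted over all 45037 probe sets by the Benjamini-Hochberg method.

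The platform annotation gave 1 symbol to 28898 probe sets, several to 551 and none to 15588. The probe set with the highest mean stood for each listed gene. The number of arrays limits the precision, and no source says that the mice of a genotype came from separate litters, so p-values measure the spread between these samples. The members and gene lists were chosen with earlier results of these data known. Named are all probe sets of the members, Klf3, the 3 genes of each pathway list with the smallest p, the 2 markers of each list with the highest level, and the 5 genes most like each member. Igfbp6, Fn1, Itgax, Siglecf, Pparg and other genes outside that rule were chosen after their values were seen.

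Labels call the mice litter-matched, and each array was set against the mean of its genotype. These deviations had r = 0.17, 0.23 and 0.21 for equal replicate numbers and -0.18 to -0.01 for unequal ones. Deviations sum to 0 within a genotype, so positive values for equal numbers force negative ones elsewhere, which are not separate evidence. The numbers were treated as pairing the samples in an alternative fit with the number as a block. Whether litter or processing underlies the values was not tested. Further alternatives left out each array, or used trend and robust fitting, a filter at the olfactory receptor level, or the mean of a gene's probe sets. Another was a two-way analysis of variance without moderation, with genotype and replicate number as its factors. The methods name a two-way analysis of variance without giving its second factor, so this may not be the study's own model. Differences between members within an array were added after seeing the data.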

Additional observations from a re-analysis of the deposited data

How the results depend on the processing

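Across all probe sets, 0 passed an adjusted p of 0.05 in limma or under any of the 12 alternatives. At an unadjusted p of 0.05 there were 1398 higher and 1077 lower. With the replicate block these became 1734 and 1478, with trend and robust fitting 1442 and 943, and without moderation in the two-way analysis of variance 884 and 1651. The number of lower probe sets was 62 as deposited and 571 above the olfactory receptor level, where fewer probe sets were tested. Leaving out each array gave 1128 to 1610 higher and 883 to 1208 lower. The replicate block changed no call past the adjusted threshold.

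The log2 fold change of Cebpd was 1.44 as deposited, and that of the brightest Cebpg probe set was -0.03 as deposited and -0.10 as the mean of the gene's probe sets. The median of the myeloid transcription factors, -0.13, was 0.079 as deposited and 0.005 without WT replicate 1 (range -0.205 to 0.005 over the arrays left out). Over all 17097 genes the median was -0.04 after quantile normalisation and 0.13 as deposited. The cause of the list's change was not tested. Over all 19 lists, 185 of 190 alternative medians moved by less than the spread between replicates, and 5 moved by more. Of these, the 2 of the myeloid factors and that of the modifiers and degraders (-0.11, and 0.12 as deposited) changed sign, and those of the dendritic cell (-0.22 without WT replicate 2) and smooth muscle markers (-0.22 without Klf3-/- replicate 2) did not. Leaving out single arrays gave medians of both signs for 5 of 8 pathway and 6 of 11 marker lists. The fold change of the brightest Cebpb probe set, 0.16, ran over -0.11 to 0.42 in the same way. The number of arrays limits all of these values, and probe sets near the olfactory receptor level are close to background.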
